A study of Homo sapiens with 12 samples.

Results

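The death-promoting branch of the BCL2 family was followed through 4 treatments of MOLT4 cells, a human T-lineage leukemia cell line, by poly(A)-selected RNA sequencing. The 10 genes were chosen by name, 2 effectors (BAX and BAK1) and 8 BH3-only genes (BCL2L11, BID, BBC3, PMAIP1, BAD, BIK, BMF and HRK), and all 10 were found among 23619 gene names. Cells had received 0.1% DMSO, the vehicle, or, at 250 nM, one of the compounds NVP-2, SNS-032 and THAL-SNS-032, all for 6 h, with 3 libraries per group and 12 in all. SNS-032 inhibits several cyclin-dependent kinases including CDK9, the kinase that releases paused RNA polymerase II, THAL-SNS-032 carries SNS-032 joined to a thalidomide-type ligand that recruits the cereblon ubiquitin ligase, and NVP-2 is a CDK9 inhibitor. All groups are the same cell line, so each result describes one leukemia. No label states that the replicates came from separate cultures, and a p-value here covers the spread between libraries alone, which may be technical.

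BAX and BAK1 are the proteins that perforate the outer mitochondrial membrane and commit a cell to apoptosis. Pro-survival relatives such as MCL1, BCL2 and BCL-XL hold them in check, and BH3-only proteins either activate BAX and BAK1 or occupy the groove of the pro-survival proteins. BIM (encoded by BCL2L11), BID and PUMA (BBC3) bind both kinds of partner, whereas NOXA (PMAIP1), BAD, BIK, BMF and HRK act mainly by neutralising pro-survival proteins. MCL1 protein and its transcript are short-lived, which is a reason why CDK9 inhibitors are studied in blood cancers.

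The values are FPKM, which are corrected for transcript length. On the deposited scale every compound library had a lower gene median than every DMSO library, while the median deviation of the spike-in RNAs stayed between -0.0167 and 0.0580 (log2) over the 12 libraries. The library medians lay between -2.61 and -1.87 (log2) from the DMSO mean with SNS-032, of which replicate 1 was the lowest, between -2.32 and -2.14 with THAL-SNS-032, and between -3.05 and -2.87 with NVP-2. Cells were counted and spike-in RNA was added at lysis, per the labels, but the sources used here do not say whether its amount followed the cell number, and without that fewer cells and less RNA per cell cannot be told apart in bulk RNA. Of 13 T-lineage marker genes, 12 were in the table and all 12 had a mean of 1 FPKM or more in DMSO, where their summed level was 3839 to 4819 FPKM. All 5 myeloid, all 3 erythroid and all 3 fibroblast markers had a mean under 1 FPKM there, although HBA1 was 1.05 FPKM in DMSO replicate 2. The B lineage markers, of which 2 of 5 reached a mean of 1 FPKM, summed to 11.7 to 12.8 FPKM. Of 4 epithelial markers 1 reached that mean, KRT8 at 1.39 ± 0.114 FPKM, and the 4 summed to 1.65 to 1.83 FPKM. The 5 myeloid markers summed to 0.926 to 1.08 FPKM in DMSO, 1.99 to 3.68 under SNS-032, 2.83 to 3.73 under THAL-SNS-032 and 0.637 to 0.720 under NVP-2. CD14 rose with the first 2 compounds, from a mean of 0.413 to 2.08 and 1.63 FPKM. LYZ rose mainly with THAL-SNS-032, from 0.272 to 1.44 FPKM (0.490 with SNS-032), and CSF1R, ITGAM and CD33 showed no such rise. The part of these markers in the results was not tested.

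In DMSO the family spanned levels from BAX, at 159 ± 13.8 FPKM (SD, n = 3), to HRK, at 0.175 ± 0.0683 FPKM. BID followed BAX with 117 ± 10.1 FPKM and BAD with 93.1 ± 12.6 FPKM, and each of these neighbours was separated, with no overlap between their libraries. BAK1 (60.7 ± 5.85 FPKM) and PMAIP1 (55.3 ± 3.09 FPKM) overlapped, as did BCL2L11 (16.8 ± 0.811 FPKM) and BIK (16.1 ± 1.02 FPKM). BMF (2.61 ± 0.284 FPKM) and BBC3 (0.994 ± 0.360 FPKM) were low. For comparison, the pro-survival genes BCL2L1, which encodes BCL-XL, MCL1 and BCL2 stood at 98.1 ± 6.63, 92.9 ± 6.63 and 6.92 ± 0.645 FPKM.

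**Figure D1:**
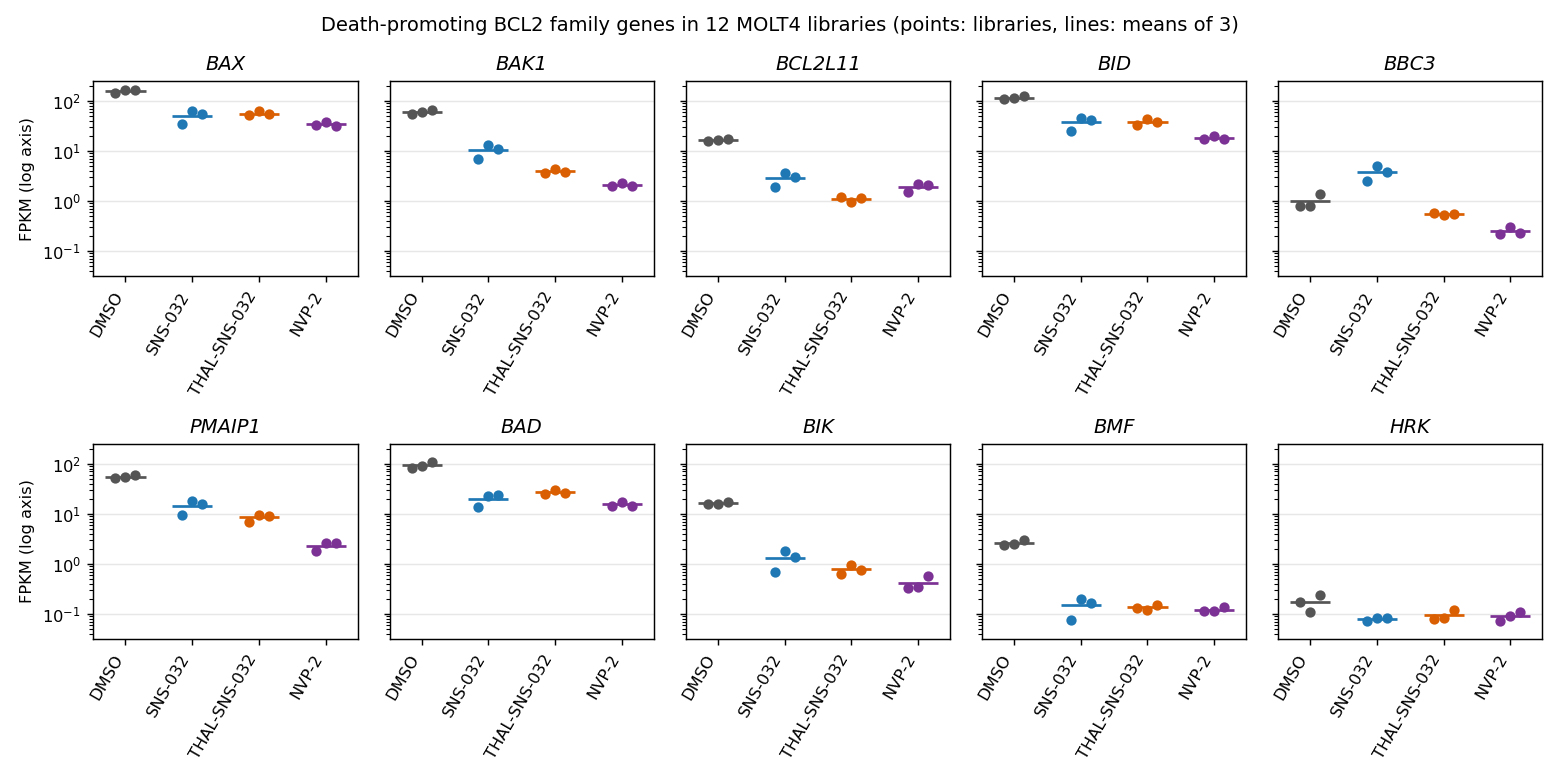
FPKM of each of the 10 genes (log axis) in the 12 libraries, with points for libraries and lines for means of 3. BBC3 is above its DMSO libraries in all 3 SNS-032 libraries, and BAX, BID and BAD keep the highest levels in every group.

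The promoter letters of 4 genes are shown because these genes responded differently: BBC3 was higher with SNS-032, BAX and BAK1 are the effectors and were lower to unequal degrees, and BCL2L11 was lowest with THAL-SNS-032. They are the 100 bases before the annotated start in RefSeq (GRCh38.p14), 5′ to 3′ on the gene's strand, and capitals mark matches on either strand to TATAAA (the TATA box), GGGCGG (a GC box) or CCAAT (the CCAAT box).
BBC3 (chr19:47232668-47232767, minus strand): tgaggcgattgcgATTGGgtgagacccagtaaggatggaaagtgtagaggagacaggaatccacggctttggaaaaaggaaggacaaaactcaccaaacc
BAX (chr19:48954775-48954874, plus strand): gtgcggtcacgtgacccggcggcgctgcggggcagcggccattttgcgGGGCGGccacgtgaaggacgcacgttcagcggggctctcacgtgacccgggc
BAK1 (chr6:33580277-33580376, minus strand): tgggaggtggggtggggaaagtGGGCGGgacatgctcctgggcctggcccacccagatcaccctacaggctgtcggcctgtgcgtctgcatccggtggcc
BCL2L11 (chr2:111120814-111120913, plus strand): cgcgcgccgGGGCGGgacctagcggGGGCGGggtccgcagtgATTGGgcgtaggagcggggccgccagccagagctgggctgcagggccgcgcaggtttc

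In the full windows of 300 bases (250 before and 50 after the start), BBC3 held 5 CpG pairs at 48% GC, BAK1 held 7, BAX 38 and BCL2L11 39, and the median of 35116 such windows was 14. GGGCGG occurred in the windows of BAX, BAK1 and BCL2L11 but not in that of BBC3, and in 45.0% of all windows. TATAAA was in none of the 4 and in 11.5% of all windows, and CCAAT was in all 4 and in 34.6%. These matches describe letters in one annotated window per gene and were not related to the changes by any test. BIK has no entry in the table of windows.

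Changes are differences in mean log2(FPKM + 1), tested by one limma fit over the 11379 genes that averaged at least 1 FPKM, and called at a Benjamini-Hochberg adjusted p under 0.05. Of the 10 genes, 8 passed that filter and 2, BMF and HRK, did not. BBC3 passed it through the SNS-032 libraries and BIK through the DMSO libraries, so the count of genes that passed describes the filter as well as the family. With SNS-032, 7 of the 8 tested genes fell and 1 rose, where 94.6% of all tested genes fell and 1.54% rose. With THAL-SNS-032, 7 fell and 1 did not pass, where 94.8% of all tested genes fell and 1.37% rose. With NVP-2 all 8 fell, where 97.1% of all tested genes fell and 0.448% rose.

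The number of family members that fell thus lies near that of all genes, and the genes differ in how far they moved. The median change of the 8 was -2.05 under SNS-032, -2.17 under THAL-SNS-032 and -2.60 under NVP-2, beside -1.92, -1.90 and -2.54 for all tested genes. When each library was centred on its own median, 4 were higher and 2 lower with SNS-032, 4 higher and 4 lower with THAL-SNS-032, and 5 higher and 3 lower with NVP-2. For all tested genes the centred calls were 5987 higher and 3538 lower, 6513 and 3319, and 6788 and 3198 in the same order, with median changes of 0.25, 0.36 and 0.42. For a gene that fell on the deposited scale, a centred value above 0 means a smaller fall than that of the library median, and it is given below beside each change that turns.

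**Figure D2:**
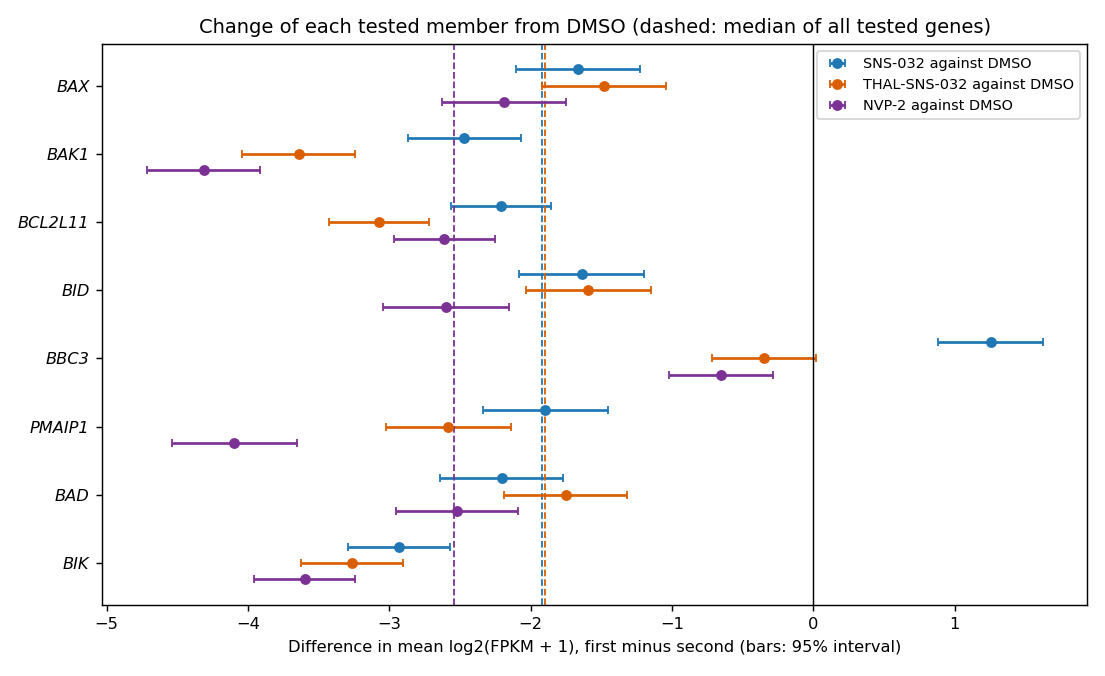
Difference from DMSO in mean log2(FPKM + 1) for the 8 tested genes, with 95% intervals of the fit and dashed lines at the median of all 11379 tested genes (-1.92, -1.90 and -2.54). BBC3 and BAX lie to the right of the line of each compound, and BAK1, BCL2L11 and BIK lie to the left of it, BCL2L11 only just with NVP-2.

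The 2 effector genes fell by different amounts. BAX was 143, 167 and 167 FPKM in the DMSO libraries, 34.3, 62.5 and 55.6 under SNS-032, 51.8, 62.3 and 54.6 under THAL-SNS-032, and 33.2, 38.0 and 31.2 under NVP-2. Every compound library was below every DMSO library, and SNS-032 replicate 1 was the lowest of its group. From SNS-032 to THAL-SNS-032 to NVP-2, the changes of BAX were -1.67, -1.48 and -2.19 (SE 0.21 each; limma, adjusted p = 1.41e-06, 5.23e-06 and 4.50e-08), and 0.51, 0.78 and 0.77 after centring.

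BAK1 was 55.1, 60.1 and 66.8 FPKM in the vehicle libraries, 6.96, 13.3 and 11.1 under SNS-032, 3.66, 4.29 and 3.86 under THAL-SNS-032, and 1.998, 2.26 and 2.03 under NVP-2. The 4 groups did not overlap, in that order from high to low. Its mean was 5.82 times lower than in DMSO with SNS-032, 15.4 times with THAL-SNS-032 and 28.9 times with NVP-2, against 3.13, 2.82 and 4.66 times for BAX. BAK1 changed by -2.47, -3.64 and -4.31 (SE 0.19 each; limma, adjusted p = 6.38e-09, 1.24e-10 and 1.34e-11). Centred, the changes were -0.30, -1.38 and -1.35, so BAK1 was called lower on both scales with every compound. In the ranking of all tested genes from the largest fall up, BAK1 stood at the 26.0, 5.0 and 5.88 percent points, and BAX at 62.6, 68.3 and 64.2.

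BBC3, one of the BH3-only genes whose proteins bind BAX and BAK1 as well as pro-survival proteins, rose with SNS-032 and was the 1 tested member called higher than DMSO on the deposited scale. BBC3 was 0.786, 0.786 and 1.41 FPKM in the vehicle libraries, 2.55, 5.13 and 3.78 under SNS-032, 0.585, 0.517 and 0.544 under THAL-SNS-032, and 0.226, 0.303 and 0.232 under NVP-2. The 3 SNS-032 libraries were above all others, and the THAL-SNS-032 and NVP-2 libraries were below those of DMSO. The rise with SNS-032 was 3.84-fold in mean FPKM and 1.25 (SE 0.17) on the log2 scale (limma, adjusted p = 4.62e-06). Because BBC3 entered that fit through the group where it is high, the fit without the filter is given too, with the same difference, SE 0.18 and adjusted p = 0.000111, while a filter at 5 FPKM leaves BBC3 out. The difference lay between 1.06 and 1.46 when any 1 library was left out, and was 1.84 with a pseudocount of 0.1, since adding 1 compresses a gene at this level.

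With THAL-SNS-032 the change of BBC3 was -0.35 (SE 0.17) and did not pass (limma, adjusted p = 0.0635). It passed in limma without DMSO replicate 1 (-0.42, adjusted p = 0.0468) or 2 (-0.42, adjusted p = 0.0447), without SNS-032 replicate 1 (adjusted p = 0.0214) or 2 (adjusted p = 0.0262), whose spread enters the pooled error, and with a pseudocount of 0.1 (-0.71) or 0.5 (-0.49). With NVP-2 BBC3 fell (a change of -0.66, SE 0.17, adjusted p = 0.00194 by limma). After centring these 2 changes became 1.91 and 2.31, where a gene this low cannot fall on the log2(FPKM + 1) scale by as much as the library median. RefSeq places the microRNA genes MIR3190 and MIR3191 inside the BBC3 locus, and both were listed at a low value that 4201 genes share in each library.

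BCL2L11 and BID, the other genes of this subgroup, fell. BCL2L11 was 16.2, 16.4 and 17.7 FPKM in the vehicle libraries, 1.95, 3.73 and 3.04 under SNS-032, 1.22, 0.960 and 1.17 under THAL-SNS-032, and 1.53, 2.17 and 2.07 under NVP-2. All compound libraries were below DMSO, and the THAL-SNS-032 libraries were the lowest of the 3 compounds. The other 7 tested members had their lowest mean with NVP-2. The changes of BCL2L11 were -2.21, -3.07 and -2.61 (SE 0.17 each; limma, adjusted p = 5.56e-09, 1.88e-10 and 4.75e-10). Centred, they were -0.04, which was not called, -0.81 and 0.35.

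BID, whose protein is cut by caspase 8 to link death receptors to mitochondria, was 108, 114 and 128 FPKM in DMSO and 25.5, 46.7 and 41.8 with SNS-032. It was 33.7, 43.6 and 37.3 under THAL-SNS-032 and 17.7, 20.4 and 17.3 under NVP-2, so the first pair of compounds overlapped and NVP-2 was below both. The changes of BID were -1.64, -1.59 and -2.60 (SE 0.21 each; limma, adjusted p = 1.83e-06, 2.54e-06 and 6.16e-09), with centred values of 0.53, 0.66 and 0.36. BID and BAX had closely similar profiles over the 12 libraries (Pearson r = 0.989), a description in which all libraries share the large step from DMSO.

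PMAIP1, which encodes NOXA, the BH3-only protein that targets MCL1 for turnover, fell in steps. It was 52.2, 55.3 and 58.4 FPKM in the vehicle libraries, 9.64, 18.4 and 15.7 under SNS-032, 6.995, 9.51 and 8.86 under THAL-SNS-032, and 1.77, 2.62 and 2.56 under NVP-2. No pair of groups overlapped, although the lowest SNS-032 library, replicate 1, was close to the highest THAL-SNS-032 library. The changes of PMAIP1 were -1.90, -2.58 and -4.10 (SE 0.21 each; limma, adjusted p = 3.76e-07, 1.19e-08 and 4.67e-11), with centred values of 0.28, -0.32 and -1.13. The mean was 3.79, 6.54 and 23.9 times lower than in DMSO.

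BAD, whose activity is set by phosphorylation in survival signalling, was 81.1, 92.1 and 106 FPKM in the vehicle libraries, 13.5, 22.2 and 23.9 under SNS-032, 24.9, 29.2 and 26.3 under THAL-SNS-032, and 14.3, 17.3 and 14.4 under NVP-2. The THAL-SNS-032 libraries were the highest of the compound libraries. The changes of BAD were -2.21, -1.75 and -2.52 (SE 0.20 each; limma, adjusted p = 5.04e-08, 6.85e-07 and 6.74e-09). Centred, they were -0.03, which was not called, 0.50 and 0.44. In RefSeq the BAD locus overlaps that of GPR137, and the sources used here do not say whether reads were counted by strand, so BAD values could include reads of that gene. RefSeq also lists the BAK1 pseudogenes BAK1P1 and BAK1P2, which could share reads with BAK1.

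BIK, an endoplasmic reticulum BH3-only gene, was 15.6, 15.5 and 17.3 FPKM in the vehicle libraries, 0.690, 1.82 and 1.38 under SNS-032, 0.629, 0.969 and 0.763 under THAL-SNS-032, and 0.331, 0.337 and 0.584 under NVP-2. All compound libraries were far below DMSO. The mean was 12.5, 20.5 and 38.6 times lower than in DMSO, and the changes of BIK were -2.93, -3.26 and -3.60 (SE 0.17 each; limma, adjusted p = 3.73e-10, 1.22e-10 and 2.25e-11). Because BIK entered that fit through the DMSO libraries, the fit without the filter is given too. It had the same differences, SE 0.18 and adjusted p = 2.07e-07, 1.03e-07 and 2.93e-08 (limma). Centred, the changes of BIK were -0.76, -1.01 and -0.64, so BIK, like BAK1, was called lower with every compound on both scales.

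BMF and HRK lay under the filter. BMF, a BH3-only gene tied to the cytoskeleton and to growth factor loss, was 2.40, 2.49 and 2.93 FPKM in DMSO and between 0.0771 and 0.203 FPKM in the 9 compound libraries, and the value shared by 4201 genes was between 0.0910 and 0.104 FPKM over the 12 libraries. In a fit without the filter its changes were -1.65, -1.67 and -1.68 (SE 0.055 each; limma, adjusted p = 1.24e-08, 1.20e-08 and 7.11e-09). HRK, known mainly from neurons, was 0.107 to 0.244 FPKM in DMSO and 0.0705 to 0.120 FPKM in the compound libraries. The compound values of both genes lie near the shared value. HRK changed by -0.12, -0.10 and -0.11 in that fit (limma, adjusted p = 0.0112, 0.0267 and 0.0202), with THAL-SNS-032 and NVP-2 libraries that overlapped DMSO.

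The make-up of the family's RNA, which a shift of a whole library leaves unchanged, differed between groups. The 10 genes summed to 521 ± 45.6 FPKM in DMSO, 142 ± 41.3 under SNS-032, 136 ± 14.2 under THAL-SNS-032 and 75.1 ± 7.36 under NVP-2. BAX made up 30.5% ± 1.22 of the sum in DMSO, 35.8% ± 0.283 under SNS-032, 41.3% ± 0.522 under THAL-SNS-032 and 45.4% ± 1.18 under NVP-2 (SD, n = 3), with no overlap between groups. BAK1 went the other way, from 11.6% ± 0.167 to 7.34% ± 0.272 under SNS-032, 2.89% ± 0.0660 under THAL-SNS-032 and 2.80% ± 0.0893 under NVP-2, where the last 2 overlapped.

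Among the BH3-only genes, the share of PMAIP1 was 10.6% ± 0.344 in DMSO, 10.2% ± 0.293 under SNS-032, 6.19% ± 0.494 under THAL-SNS-032 and 3.08% ± 0.571 under NVP-2, the first pair overlapping. BBC3 reached 2.68% ± 0.270 with SNS-032, against 0.188% ± 0.0534 in DMSO, 0.407% ± 0.0659 under THAL-SNS-032 and 0.336% ± 0.0237 under NVP-2. BCL2L11 had its lowest share with THAL-SNS-032, at 0.830% ± 0.179, against 3.22% ± 0.159 in DMSO. BAX, BID and BAD together held 70.7% ± 0.640 in DMSO, 76.6% ± 1.03 under SNS-032, 88.9% ± 0.450 under THAL-SNS-032 and 90.4% ± 1.24 under NVP-2. These shares are descriptions and were not tested.

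**Figure D3:**
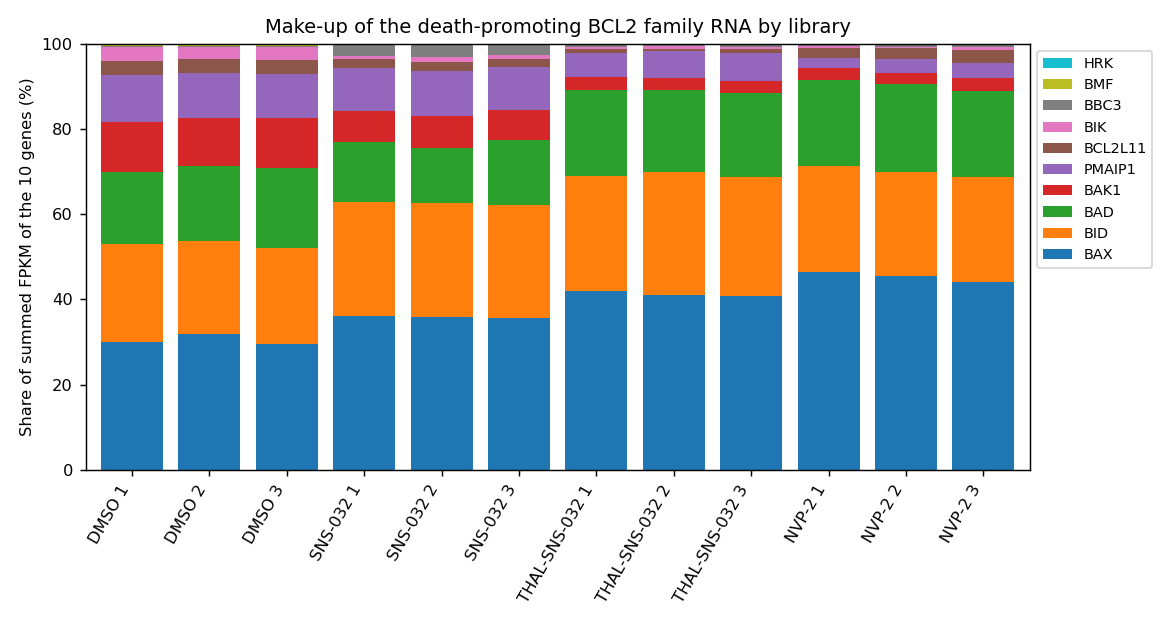
Share of the summed FPKM of the 10 genes held by each gene in each of the 12 libraries (bars add to 100%). The share of BAX widens from 29.5% to 31.8% in the DMSO libraries to 44.2% to 46.5% in the NVP-2 libraries, while the BAK1 band narrows.

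SNS-032 and THAL-SNS-032 were compared at the same dose and time. Of the 8 tested genes, 4 were called lower under THAL-SNS-032, 0 were called higher by limma (1 at an unadjusted p under 0.05) and 4 did not pass, where 16.7% of all tested genes were lower and 13.4% higher. After centring 5 of the 8 were called lower and 2 higher, where 2627 of all tested genes were lower and 5820 higher. BBC3 differed most, at -1.60 (SE 0.17, adjusted p = 7.83e-06 by limma), a mean 6.97 times lower with THAL-SNS-032. BBC3 entered the fit through SNS-032, and without the filter its adjusted p was 0.000349 (limma). BAK1 differed by -1.17 (SE 0.19) and BCL2L11 by -0.86 (SE 0.17), both with separate libraries, and the differences were -1.52, -1.09 and -0.78 for the 3 genes after centring. PMAIP1 differed by -0.69 (SE 0.21, adjusted p = 0.0225 by limma), but this call was lost without SNS-032 replicate 2 (-0.51) or 3 (-0.61), without THAL-SNS-032 replicate 1 (-0.57) or 3 (-0.72), in a fit of the 6 libraries alone and without the filter.

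The remaining 4 genes gave 95% intervals within 2-fold of FPKM + 1 between SNS-032 and THAL-SNS-032. For BIK, at 1.30 and 0.787 FPKM, such an interval can span more than 2-fold in FPKM. They were -0.26 to 0.62 for BAX, -0.40 to 0.49 for BID, 0.02 to 0.88 for BAD and -0.69 to 0.03 for BIK. The differences were 0.18, 0.04, 0.45 and -0.33, and 0.27, 0.13, 0.54 and -0.25 after centring, where BAX and BAD were called higher and BIK lower. SNS-032 replicate 1 bears on these values. Without it, BAX and BID turned to -0.07 and -0.21, and BIK was called lower (-0.54, adjusted p = 0.00315 by limma). BAD had libraries that did not overlap and an unadjusted p = 0.0416 in the limma fit.

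Between THAL-SNS-032 and NVP-2, 5 of the 8 genes were higher with THAL-SNS-032, 1 was lower and 2 did not pass, where 70.0% of all tested genes were higher and 0.993% lower. After centring 2 of the 8 were called higher and 3 lower, where 3339 of all tested genes were higher and 4329 lower. PMAIP1 was higher by 1.51 (SE 0.21) and BID by 1.01 (SE 0.21), and by 0.81 and 0.30 after centring. BAX, BAK1 and BAD were higher by 0.71, 0.67 and 0.77, but by 0.0015, -0.03 and 0.06 once centred, none of which was called. BCL2L11 was lower with THAL-SNS-032 (-0.46, SE 0.17, adjusted p = 0.0225 by limma, and -1.17 after centring), at the 1.39 percent point of all tested genes. That call was lost without THAL-SNS-032 replicate 2 (-0.41), NVP-2 replicate 2 (-0.40) or NVP-2 replicate 3 (-0.42), although no THAL-SNS-032 library reached an NVP-2 library. BBC3 (95% interval -0.06 to 0.67) and BIK (-0.02 to 0.69) did not pass, with separate libraries for both, and turned to -0.40 and -0.37 after centring. Without SNS-032 replicate 1, which leaves these differences as they are but enters the pooled error, both were called higher (limma, adjusted p = 0.0461 and 0.0117), and BIK also without SNS-032 replicate 2 (adjusted p = 0.0447).

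Between SNS-032 and NVP-2, 6 of the 8 genes were higher with SNS-032, 0 were lower by limma (also 0 at an unadjusted p under 0.05) and 2 did not pass, where 52.6% of all tested genes were higher and 0.782% lower. After centring 4 of the 8 were called higher and 3 lower, where 2816 of all tested genes were higher and 6711 lower. PMAIP1 (2.20, SE 0.21), BBC3 (1.91, SE 0.17) and BAK1 (1.84, SE 0.19) differed most, and by 1.41, 1.12 and 1.05 after centring. In the fit without the filter, through which BBC3 had entered by its SNS-032 libraries, BBC3 was still called (limma, adjusted p = 4.30e-05). BID and BIK were higher by 0.96 and 0.67, and by 0.17 and -0.12 after centring. BAX was higher by 0.52 (adjusted p = 0.0441 by limma), with overlapping libraries, and turned to -0.27 after centring. Its call was lost without any 1 library other than SNS-032 replicate 1 or NVP-2 replicate 2 (0.35 to 0.52). BCL2L11 (95% interval 0.04 to 0.75) and BAD (-0.12 to 0.75) did not pass, but both were called higher without SNS-032 replicate 1 (0.59 and 0.56), and turned to -0.39 and -0.47 after centring.

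**Figure D4:**
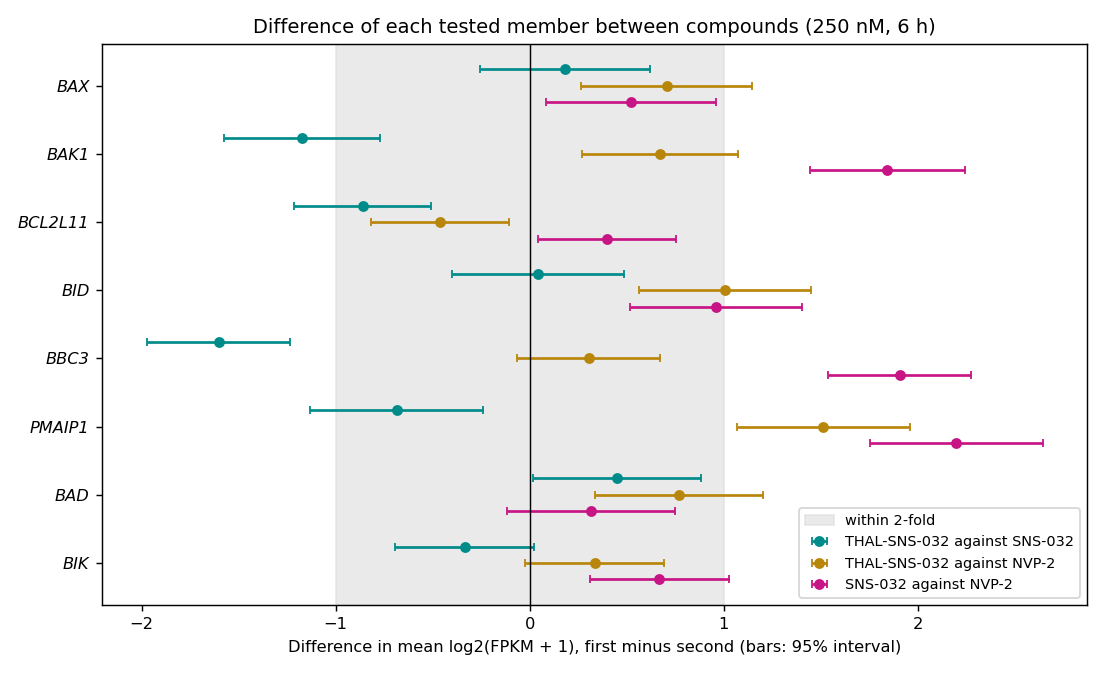
Differences between compounds in mean log2(FPKM + 1) for the 8 tested genes, with 95% intervals of the fit and the span within 2-fold of FPKM + 1 in grey. BAK1, BBC3 and PMAIP1 lie outside the grey span for SNS-032 against NVP-2, and BAX, BID, BAD and BIK lie within it for THAL-SNS-032 against SNS-032.

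The pro-survival side moved as well. Of 6 pro-survival genes 3 were tested, and all 3 fell with each compound, near the 94.6%, 94.8% and 97.1% of all tested genes that fell. Their medians were -1.47, -2.15 and -3.06, beside -1.92, -1.90 and -2.54 for all tested genes. MCL1 was 48.5 ± 14.9 FPKM under SNS-032, 19.3 ± 1.26 under THAL-SNS-032 and 6.56 ± 0.620 under NVP-2, changes of -0.97, -2.21 and -3.63, or 1.20, 0.05 and -0.67 after centring. BCL2L1 changed by -2.01, -2.15 and -3.06, or by 0.16, 0.11 and -0.10 once centred. For BCL2 the values were -1.47, -1.22 and -2.06, with centred values of 0.70, 1.04 and 0.90.

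Within each library the members were set against MCL1, as the difference in log2(FPKM + 1). BAX stood 0.77 ± 0.049 above MCL1 in DMSO, 0.07 ± 0.031 under SNS-032, 1.49 ± 0.056 under THAL-SNS-032 and 2.21 ± 0.088 under NVP-2 (SD, n = 3), with no overlap between groups. BID and BAD followed the same order, at 0.33, -0.34, 0.94 and 1.36 for BID and -0.0023, -1.24, 0.45 and 1.11 for BAD. Relative to MCL1, these 3 genes were thus lower with SNS-032 and higher with THAL-SNS-032 and NVP-2 than in DMSO. MCL1 itself fell less than the median of all tested genes with SNS-032 (-1.92). It fell more than that median with THAL-SNS-032 (-1.90) and NVP-2 (-2.54). A gene at the median would thus move in the same directions relative to MCL1, so the directions are not particular to these 3 genes. BBC3 was higher than in DMSO relative to MCL1 with all 3 compounds, by 2.22, 1.86 and 2.98, on a scale that compresses its low values.

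BAK1 and PMAIP1 were below their DMSO position relative to MCL1 with all 3 compounds. BAK1 stood at -0.61 in DMSO, -2.11 under SNS-032, -2.04 under THAL-SNS-032 and -1.29 under NVP-2. PMAIP1 stood at -0.74, -1.66, -1.11 and -1.20 in the same order. BCL2L11 differed from its DMSO position by -1.24 and -0.86 with the first 2 compounds and by 1.02 with NVP-2. BIK differed by -1.96 and -1.05 and overlapped DMSO with NVP-2. There BIK averaged 0.418 FPKM, 38.6 times lower than in DMSO, and adding 1 compresses the fall of a gene this low. MCL1 went from 92.9 to 6.56 FPKM, so the overlap does not show an equal fall in FPKM. Each comparison with DMSO whose libraries did not overlap had an exact two-sided permutation p = 0.1, the smallest that 3 libraries against 3 allow. The adjustment covered all 96 ratio comparisons, with MCL1 or BCL2 and over all 6 pairs of groups. The adjusted permutation p was 0.116 or more.

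Set against BCL2, another pro-survival gene, the picture for BAX, BID and BAD was different. BAX differed from its DMSO position by -0.20, -0.26 and -0.13 in the same order of compounds, the last with overlapping libraries. BID differed by -0.17, -0.38 and -0.54, and BAD by -0.74, -0.54 and -0.46, all with separate libraries. BCL2 itself averaged 6.92 FPKM in DMSO and 1.91, 2.40 and 0.895 FPKM with the compounds. At the compound levels adding 1 compresses its fall, which lowers these differences. Among those with separate libraries, a pseudocount of 0.1 turned the values to 0.17 for BAX and 0.20 for BID with SNS-032. It turned them to 0.16 for BID and 0.23 for BAD with NVP-2. Turns were recorded only for separate libraries, so BAX with NVP-2 was left out. There mean BAX went from 159 to 34.1 FPKM and mean BCL2 from 6.92 to 0.895 FPKM, so BCL2 fell by the larger factor. The -0.13 thus does not show a larger fall of BAX in FPKM. Of the 8 genes, BBC3 was the 1 that was higher relative to BCL2 with separate libraries under each compound, by 2.72, 0.87 and 1.41.

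**Figure D5:**
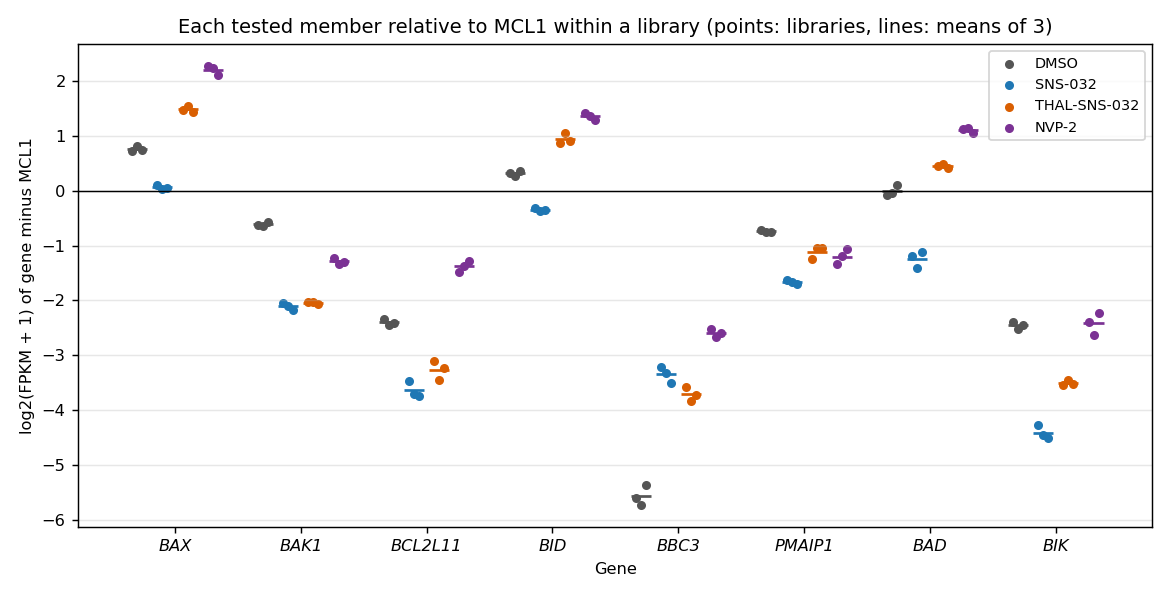
Difference in log2(FPKM + 1) between each tested gene and MCL1 within each of the 12 libraries, with lines at the means of 3. BAX, BID and BAD are lowest with SNS-032 and highest with NVP-2, while BAK1 and PMAIP1 are below DMSO with every compound.

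The wider apoptosis machinery was described by lists, whose counts lie near the 94.6%, 94.8% and 97.1% of all tested genes that fell with the compounds in the order used above, and whose medians stand beside -1.92, -1.90 and -2.54 for all tested genes. All 13 tested genes of the apoptosome, caspases and released mitochondrial proteins fell with each compound (medians -2.70, -2.54 and -3.26). After centring 8 of the 13 were called lower with each compound, and 4, 5 and 4 higher. Of all 11379 tested genes, 3538, 3319 and 3198 were called lower and 5987, 6513 and 6788 higher after centring. CASP8, the initiator caspase of death receptors, changed least of the 13 with SNS-032, from 36.1 ± 3.74 to 24.8 ± 6.73 FPKM (-0.56, adjusted p = 0.0102 by limma), and was 7.49 ± 0.527 under THAL-SNS-032 and 3.37 ± 0.303 under NVP-2. Centred, its changes were 1.62, 0.13 and -0.12. VDAC2, which encodes a mitochondrial channel that binds BAK1 protein, was 278 ± 21.3 FPKM in DMSO and 150 ± 42.3, 79.1 ± 7.11 and 26.7 ± 2.09 with the compounds, with centred changes of 1.25, 0.46 and -0.37. All 6 tested genes of the list of other BCL2-related genes fell with each compound too (medians -2.17, -2.05 and -3.00), and the highest-expressed of them, BECN1, an autophagy gene with a BH3 domain, changed by -1.46, -0.89 and -1.74, or by 0.71, 1.37 and 1.22 once centred. After centring 3 of these 6 genes were called higher with each compound, and 3, 2 and 3 lower, beside the same centred counts of all tested genes.

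Of 10 upstream regulators 8 were tested, and all 8 fell with each compound (medians -1.88, -2.60 and -3.09), beside the same shares and medians of all tested genes. After centring 4, 3 and 3 of the 8 were called higher and 3, 5 and 4 lower, beside the centred counts of all tested genes given above. FOXO3, a transcription factor gene known to act on BCL2L11 and BBC3, changed by -2.19, -2.82 and -2.93, with centred values of -0.01, -0.57 and 0.03, of which the second was called. MDM2, a ubiquitin ligase gene, changed by -1.58, -2.57 and -3.52, with centred values of 0.59, -0.31 and -0.56. DDIT3, the stress gene that encodes CHOP, changed by -4.75, -4.78 and -4.95, with centred values of -2.58, -2.52 and -1.99.

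The tested genes whose profiles over the 12 libraries were closest to a member differed between members. For BBC3 they were MGARP (Pearson r = 0.988), CD302 (0.985) and TP53INP1 (0.980). MGARP was 0.823 ± 0.296 FPKM in DMSO, 4.29 ± 1.37 under SNS-032, 0.605 ± 0.217 under THAL-SNS-032 and 0.163 ± 0.0676 under NVP-2. TP53INP1 was 2.50 ± 0.219, 10.1 ± 3.16, 1.17 ± 0.0380 and 0.437 ± 0.0348 FPKM in the same order. BBC3 and MGARP both passed the 1 FPKM filter through their SNS-032 libraries. A search among tested genes favours low genes that are high in that group, so this likeness partly describes the filter. For BAK1 they were GABPB1, ELMO2 and CNOT8 (all at 0.999 or above), and for BCL2L11 ZBTB10 (0.998), TGDS and RYBP (0.996 each). BBC3 correlated with the other tested members at 0.0091 (BAD) to 0.418 (PMAIP1), while the other 7 correlated with each other at 0.849 or more. The correlations of the other 7 members describe 12 libraries that share the step from DMSO to the compounds. BBC3 and its 3 closest genes instead had their highest mean with SNS-032.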

How the data were processed

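RNA was measured in 12 MOLT4 libraries, 3 per group. Per the labels' protocols, spike-in RNA (ERCC) was added at lysis and stranded poly(A) libraries were made. HISAT, Cufflinks 2.0.0 and hg19 are named in the submitters' processing notes. The authors deposited FPKM per gene, in which spike-in values are level across libraries and gene values are not. The annotation, and whether the spike-ins were used for scaling, are not given in the sources used here. Cells were counted before lysis, per the labels. Without counts in the table, depth is unknown.

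After removal of 92 ERCC entries and 2 repeated symbols, 23619 of 23713 entries were left. The fit was limma 3.58.1 (R 4.3.3, trend, 8 residual degrees of freedom) on log2(FPKM + 1) of the 11379 genes that averaged at least 1 FPKM, for 6 two-sided comparisons with Benjamini-Hochberg adjustment, and the test was checked on simulated data. Ratios used exact permutation (SciPy 1.17.1). Figures were drawn with matplotlib 3.10.9.

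The members, lists and tests were chosen with earlier results of these data known. Named genes are all 10 members, MCL1, BCL2, the highest-expressed and most changed tested genes of each list, and the 3 genes most correlated with each member. Those printed were picked from these. FOXO3, MDM2 and the myeloid, erythroid and epithelial markers named above were added after their values were seen. Alternatives changed the pseudocount (0.1, 0.5), filter (none, 5 FPKM), scale (median-centred, equal ERCC deviations), limma trend, libraries fitted, a replicate block, a 2-fold minimum, and each replicate left out.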

Additional observations from a re-analysis of the deposited data

How the results depend on the processing

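Leaving out single libraries, where a group of 2 is assumed to vary like the others, gave 0 to 1 genes lower with THAL-SNS-032 than with NVP-2. BAX and BID for THAL-SNS-032 against SNS-032 ranged from -0.0707 to 0.352 and from -0.213 to 0.211, below 0 without SNS-032 replicate 1 and, for BID, without THAL-SNS-032 replicate 2 (-0.0534). With a mean of 5 FPKM or more BBC3 is not tested and 0 members rose with SNS-032. Without the filter 0 were lower for THAL-SNS-032 against NVP-2. A 2-fold minimum, taken on FPKM + 1, left 2 lower for THAL-SNS-032 against SNS-032, 0 lower and 2 higher for THAL-SNS-032 against NVP-2, and 3 higher for SNS-032 against NVP-2. The replicate block gave 1 higher member, BAD, for THAL-SNS-032 against SNS-032 in place of 0, and called BCL2L11 (0.40) higher for SNS-032 against NVP-2. Same-numbered libraries correlated at -0.15 to 0.17 over genes, over 0.1 in 1 of 18 pairs. Of 12 libraries, 7 correlated best with their own number. Such a correlation does not register a shift of a whole library, so it cannot decide whether same-numbered libraries shared one. Replicate 1 had the lowest gene median in every group, and replicate 2 the highest with each compound but not in DMSO. For THAL-SNS-032 against SNS-032 the block called 2307 of all tested genes higher and 2133 lower, in place of 1526 and 1900. The main fit did not take the numbers as pairs, and what the numbers stand for was not tested.

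Median-centred libraries gave 2 lower and 4 higher members with SNS-032, 4 and 4 under THAL-SNS-032, 3 and 5 under NVP-2, 2 higher for THAL-SNS-032 against SNS-032, 3 lower and 2 higher for THAL-SNS-032 against NVP-2, and 3 lower for SNS-032 against NVP-2. Directions turned, by the construction of centring, to 0.51 (BAX), 0.53 (BID), 0.28 (PMAIP1), 1.20 (MCL1) and 0.70 (BCL2) with SNS-032, to 0.78 (BAX), 0.66 (BID), 1.91 (BBC3), 0.50 (BAD), 0.048 (MCL1) and 1.04 (BCL2) under THAL-SNS-032, and to 0.77 (BAX), 0.35 (BCL2L11), 0.36 (BID), 2.31 (BBC3), 0.44 (BAD) and 0.90 (BCL2) with NVP-2. They turned to -0.0321 (BAK1), -0.40 (BBC3) and -0.37 (BIK) for THAL-SNS-032 against NVP-2, and to -0.27 (BAX), -0.39 (BCL2L11), -0.47 (BAD), -0.12 (BIK) and -0.20 (BCL2) for SNS-032 against NVP-2. Turns of ratios were recorded only where the libraries were separate. With a pseudocount of 0.1 the BBC3 to MCL1 ratio for SNS-032 against NVP-2 turned to 0.60. Ratios to BCL2 turned to 0.17 (BAX) and 0.20 (BID) with SNS-032 and to 0.16 (BID) and 0.23 (BAD) with NVP-2. With 0.5 the BID to BCL2 ratio with SNS-032 turned to 0.0078.

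Of 1242 differences recomputed for the 8 tested members, MCL1 and BCL2, 1163 kept their direction and side of the threshold, 28 turned, 27 lost the call and 24 gained it. Of 1344 ratio differences recomputed, 1230 stayed within the larger group SD, 108 moved beyond it and 6 turned. With a pseudocount of 0.1, 25 of 96 ratio differences stayed, 66 moved and 5 turned. With 0.5, 53 stayed, 42 moved and 1 turned. All 96 stayed when any 1 library was left out. Depth is unknown, and low genes (BBC3, BIK, BMF and HRK) depend most on the pseudocount.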
